A study of Mus musculus with 69 samples.

Results

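H19, Igf2, Meg3, Rian, Mirg, Dlk1, Peg3, Mest, Grb10 and Plagl1 are 10 mouse genes that are transcribed mainly from 1 parental allele and that promote or restrain growth. They were taken by symbol from a read count table of 55367 gene symbols, and all 10 passed the low-count filter and were tested in every comparison. The table holds 69 libraries from mouse embryonic stem (mES) cells and from mosaic gastruloids, which are aggregates of mES cells that form germ layers and a body axis in culture. It was made to ask how wild-type (WT) cells respond to neighbours that lack p53. The mES cells at 0 h were kept in serum with LIF, and gastruloids received a pulse of the Wnt activator CHIR99021 from 48 to 72 h. All cells descended from the E14tg2A line.

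There were 3 clones. WT–mCherry cells carry a piggyBac transgene for H2B–mCherry under the EF1α promoter. WT–emiRFP cells carry H2B–emiRFP670 under the CAG promoter. p53KO–emiRFP is a daughter clone of WT–emiRFP, made with Cas9 and selected with Nutlin-3a, with a homozygous 1-base insertion in Trp53 that shifts the reading frame. WT + WT gastruloids were seeded from 150 WT–mCherry and 150 WT–emiRFP cells, and WT + p53KO gastruloids from 150 WT–mCherry and 25 p53KO–emiRFP cells. Each clone was measured alone at 0 h, and both cell populations of each gastruloid type were separated by fluorescence-activated cell sorting at 48, 72, 96, 120 and 144 h, giving 23 groups of 3 libraries. The p53KO genotype and the mCherry colour each rested on 1 clone, so loss of p53 and the history of that clone cannot be told apart, nor can the colour and the clone of WT–mCherry cells. The study describes its RNA-seq samples as collected in independent experiments at different times, and the labels number the libraries of a group without saying whether a number stands for 1 experiment.

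At imprinted genes, DNA methylation laid down in the egg or the sperm marks 1 parental copy, and the mark is kept through the cell divisions of the embryo, so that the copies are transcribed unequally. In the mouse, many genes expressed from the paternal copy promote growth and many expressed from the maternal copy restrain it, and the insulin-like growth factor pathway is a main site of that opposition. Imprints of embryonic stem cell lines are known to drift in culture and to differ between lines and between clones of 1 line. The method used here counts RNA from both copies together, so neither allelic expression nor methylation was measured.

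The members lie on 5 chromosomes, with coordinates on GRCm38 from Gencode vM21. H19, a maternally expressed long non-coding RNA, lies at chr7:142575529-142578143 on the minus strand, and Igf2, the paternally expressed insulin-like growth factor, lies near it at chr7:142650766-142666816 on the same strand. Dlk1, a paternally expressed transmembrane protein with EGF-like repeats, lies at chr12:109452823-109463336 on the plus strand. The maternally expressed non-coding RNAs of that cluster follow on the same strand, with Meg3 at chr12:109541001-109571726, Rian at chr12:109603940-109661716 and Mirg at chr12:109729764-109749460. Rian overlaps 13 snoRNA genes and 4 miRNA genes, and Mirg overlaps 15 miRNA genes. Peg3, a paternally expressed zinc-finger protein, lies at chr7:6703892-6730431 on the minus strand, and Mest, a paternally expressed protein of the hydrolase fold family, at chr6:30723547-30748465 on the plus strand. Plagl1, a paternally expressed zinc-finger transcription factor, lies at chr10:13060504-13131694 on the plus strand. Grb10, an adaptor that binds the insulin and insulin-like growth factor receptors and inhibits their signalling, lies at chr11:11930508-12038683 on the minus strand and is expressed from the maternal copy in most tissues.

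The promoter windows of Mest, Plagl1, Peg3 and Grb10 are shown because these genes were called between the WT clones at each of the 6 times. Each window runs from 250 bases before to 50 bases after a RefSeq transcription start, on GRCm38.p6. They are chr6:30737800-30738099 on the plus strand for Mest, chr10:13090582-13090881 on the plus strand for Plagl1, chr7:6730370-6730669 on the minus strand for Peg3 and chr11:12037371-12037670 on the minus strand for Grb10. CG dinucleotides, the usual sites of DNA methylation in mammals, are in capitals. The sequences are written from 5′ to 3′ on the strand of the gene.
Mest: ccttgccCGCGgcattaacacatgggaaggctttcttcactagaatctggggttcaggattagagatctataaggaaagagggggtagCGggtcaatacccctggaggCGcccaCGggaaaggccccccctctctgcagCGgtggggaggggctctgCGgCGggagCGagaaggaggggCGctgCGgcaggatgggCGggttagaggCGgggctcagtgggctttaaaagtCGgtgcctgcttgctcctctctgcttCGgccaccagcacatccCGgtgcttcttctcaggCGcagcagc
Plagl1: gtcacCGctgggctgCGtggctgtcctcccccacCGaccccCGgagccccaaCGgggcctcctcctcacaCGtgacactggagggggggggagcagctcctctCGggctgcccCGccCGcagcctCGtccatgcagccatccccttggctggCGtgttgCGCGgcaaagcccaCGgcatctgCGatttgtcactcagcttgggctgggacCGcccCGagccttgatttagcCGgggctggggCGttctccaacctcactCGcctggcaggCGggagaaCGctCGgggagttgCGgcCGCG
Peg3: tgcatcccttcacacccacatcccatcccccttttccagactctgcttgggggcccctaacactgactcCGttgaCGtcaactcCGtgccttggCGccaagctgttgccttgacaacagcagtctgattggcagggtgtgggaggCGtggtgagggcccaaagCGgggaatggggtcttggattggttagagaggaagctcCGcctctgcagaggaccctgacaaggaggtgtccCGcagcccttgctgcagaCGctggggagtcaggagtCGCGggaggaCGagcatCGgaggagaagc
Grb10: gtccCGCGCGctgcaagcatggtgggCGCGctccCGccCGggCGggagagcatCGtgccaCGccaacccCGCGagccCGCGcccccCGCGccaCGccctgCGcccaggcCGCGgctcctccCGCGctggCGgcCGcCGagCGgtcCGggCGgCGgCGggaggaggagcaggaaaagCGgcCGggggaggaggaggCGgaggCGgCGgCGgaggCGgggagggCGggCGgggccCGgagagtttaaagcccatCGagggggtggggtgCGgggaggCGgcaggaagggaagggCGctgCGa

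Grb10 and Mest have more than 1 window in RefSeq, and the windows shown are those with the most CG dinucleotides, chosen after these had been counted. The other Grb10 window, at chr11:12027922-12028221, held 9 CG, and a Mest window at chr6:30733256-30733555 held 8, both without the hexamer described next. The third Mest window starts 3 bases after the one shown and has the same counts. The Grb10 window shown held 45 CG dinucleotides, and 1.93% of all 32851 RefSeq promoter windows of that length held as many or more. Plagl1 held 26 (16.9% of windows held as many), Mest 17 (31.4%) and Peg3 13 (37.9%), against a median of 7 over all windows. The hexamer TGCCGC, searched on both strands, is the methylated core bound by the imprint-protecting protein ZFP57. It occurred at 2 positions in the Mest window, at 1 position in each of the Plagl1 and Grb10 windows and at none in the Peg3 window, whereas 11.6% of all windows held it at least once and 1.53% at 2 or more positions. The Peg3 window also contains the start of Usp29, a gene transcribed in the other direction. RefSeq windows were found for 9 of the 10 members, and H19 had no entry. A match is a description of the letters only.

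H19 and Mest also carry miRNAs, which are shown because their host RNAs had the largest differences of the members between the WT clones in mES cells. The miR-675 hairpin lies in an exon of H19, and the miR-335 hairpin lies in an intron of Mest. The mature sequences are from RefSeq, with the seed (bases 2 to 8) in capitals.
mmu-miR-675-5p: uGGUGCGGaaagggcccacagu
mmu-miR-675-3p: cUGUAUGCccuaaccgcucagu
mmu-miR-335-5p: uCAAGAGCaauaacgaaaaaugu
mmu-miR-335-3p: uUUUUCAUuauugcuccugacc

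No pair of these seeds was alike, and none was shared with another mature miRNA of the table. The libraries were made from polyadenylated RNA, so the mature miRNAs were not measured here.

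Libraries held 26722541 to 72981570 counted reads, with a median of 53098728. Values are normalized counts, that is reads divided by the library's median-of-ratios size factor, and mean ± SD is over n = 3 libraries. Trp53 counts lay between 1506 and 2589 in the 18 p53KO–emiRFP libraries and between 13902 and 27511 in the libraries of both WT clones. Summed normalized counts of 6 naive pluripotency markers were 155027 to 195024 in the 9 libraries at 0 h, 9064 to 14377 at 48 h and 11982 to 85515 at 144 h. H2bc14, a histone H2B gene whose row was high in both emiRFP clones, was 6 to 8 in WT–mCherry mES cells and 4934 to 10517 in the emiRFP libraries. It was therefore used as a mark of emiRFP RNA in libraries of sorted WT–mCherry cells. Whether the H2bc14 of WT–mCherry cells themselves changes with time or neighbours was not tested. All libraries were of bulk RNA, so fewer cells of a type and less RNA per cell cannot be told apart. Igf2 has a limit of annotation: 3596 of its 5723 exonic bases are also assigned to a read-through gene on the same strand, Gm49394, and per-gene counting leaves out reads that fall on more than 1 gene, so the Igf2 row rests on the remaining 2127 bases. Mest shares 912 exonic bases with Copg2 and Meg3 1228 with Gm26906, in both cases on the opposite strand.

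Per kilobase of countable exon, the order of the members in mES cells differed between the clones. In WT–mCherry mES cells the levels were highest for H19 (7181 ± 857 normalized counts per kb), Mest (1865 ± 3.8) and Peg3 (567 ± 10.3), and lowest for Igf2 (62.6 ± 4.32) and Dlk1 (37.4 ± 7.92). In WT–emiRFP mES cells Grb10 (939 ± 191) and H19 (720 ± 57.3) led, followed by Rian (310 ± 38.6) and Peg3 (228 ± 51.9), and Plagl1 (23.7 ± 8.53) and Dlk1 (25.3 ± 8.49) were lowest and overlapped. In p53KO–emiRFP mES cells the first 2 places were again Grb10 (986 ± 96.2) and H19 (730 ± 115). Grb10 stood only sixth of 10 in WT–mCherry mES cells, at 183 ± 10.6 per kb. Mirg (97.4 ± 7.83) and Mest (95.7 ± 14.3) in WT–emiRFP mES cells did not differ beyond their spread.

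**Figure D1:**
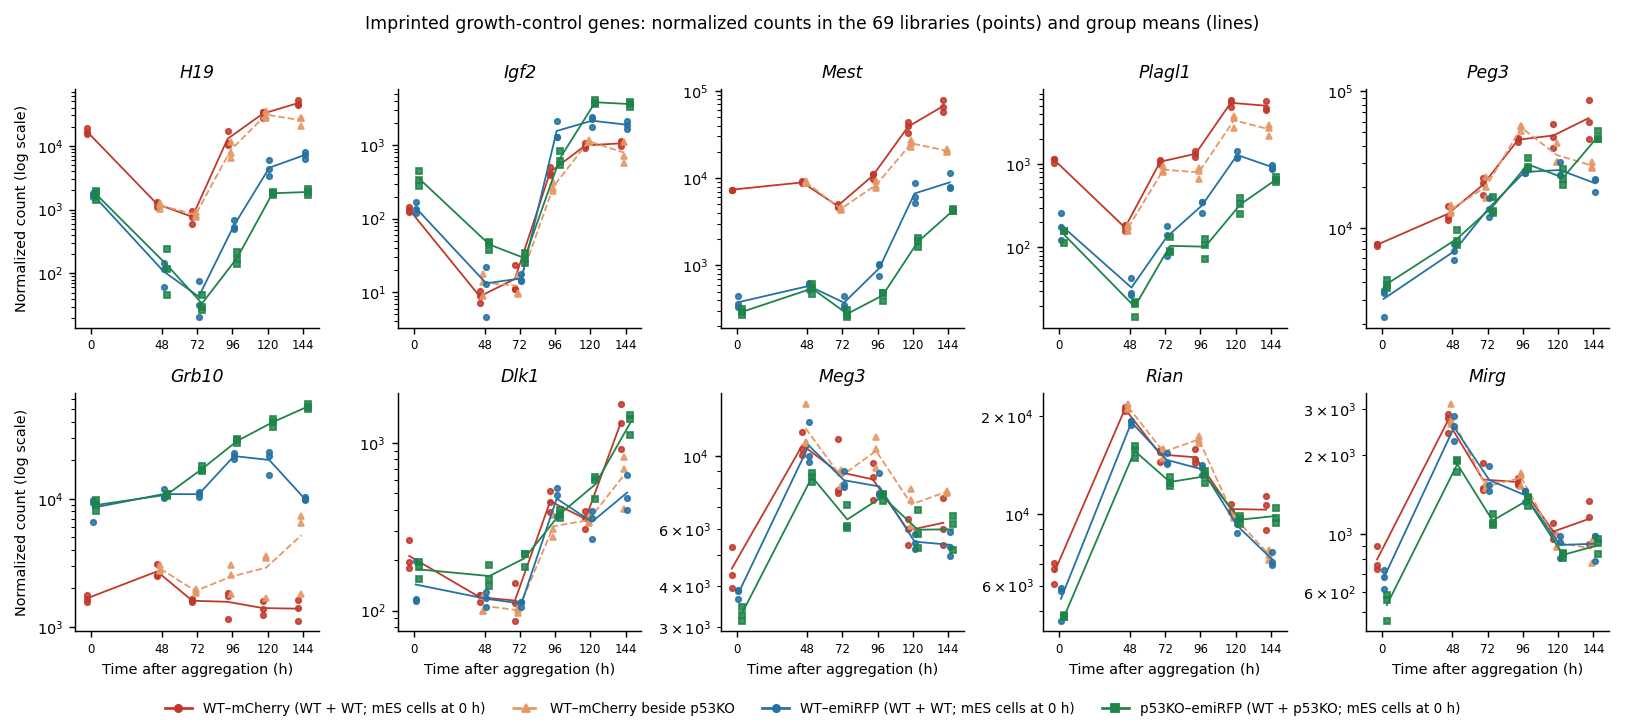
Normalized counts (log scale) of the 10 members against time in hours, with 1 point for each of the 69 libraries and lines through the group means; colours mark the clones, and WT–mCherry cells sorted from WT + p53KO gastruloids have a line of their own. H19, Mest and Plagl1 of WT–mCherry cells lie above both emiRFP clones at each of the 6 times and Grb10 lies below them, whereas Meg3, Rian and Mirg peak at 48 h in every population.

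The WT clones were compared first, to see how far the members differ between cells of the same genotype. H19, Mest, Plagl1 and Peg3 were higher and Grb10 was lower in WT–mCherry than in WT–emiRFP cells at each of the 6 times from mES cells to 144 h. Over the 16309 genes tested at all 6 times, 22 (0.135%) were called higher at every time, and 4 of them were members. A further 18 genes (0.11%) were called lower at every time, of which 1 was a member, Grb10. The histone H2B genes H2bc3, H2bc7, H2bc14 and H2bc21 were among the 18. A gene was called where its Benjamini-Hochberg adjusted p from edgeR's quasi-likelihood test, taken over all genes of the comparison, was under 0.05.

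H19, which restrains growth, stood at 19315, 15358 and 16511 normalized counts in the 3 WT–mCherry mES libraries, at 1847, 1714 and 1575 in WT–emiRFP and at 1421, 1854 and 1928 in p53KO–emiRFP. The WT–mCherry libraries were far above the rest, and the emiRFP clones overlapped each other. The difference between the WT clones was 9.97-fold (log2 3.32 ± 0.13 SE, edgeR adjusted p = 6.48e-09). At 144 h H19 was 44706, 43683 and 52612 in WT–mCherry cells and 8118, 7243 and 6181 in WT–emiRFP cells of the same gastruloids, again without overlap (log2 2.71 ± 0.13 SE, edgeR adjusted p = 9.84e-08). Between these times the difference ran from log2 2.82 at 120 h to 4.51 at 96 h, when the WT–mCherry mean was 12894 ± 3778 and the WT–emiRFP mean 567 ± 97.8.

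Mest, which marks growing mesoderm in the embryo, was 7367, 7368 and 7341 in WT–mCherry mES cells, 330, 440 and 363 in WT–emiRFP and 272, 313 and 289 in p53KO–emiRFP. The WT–mCherry values were nearly the same in each library and stood 19.5-fold above those of WT–emiRFP (log2 4.29 ± 0.12 SE, edgeR adjusted p = 7.79e-11). Both clones gained Mest RNA in the gastruloid. At 144 h the libraries were at 65888, 56699 and 78645 in WT–mCherry and at 11294, 7596 and 7920 in WT–emiRFP cells, which was a 7.5-fold difference without overlap (log2 2.91 ± 0.14 SE, edgeR adjusted p = 9.84e-08).

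Plagl1, a transcription factor of an imprinted gene network, was 1144, 1043 and 1156 in WT–mCherry mES cells and 123, 177 and 256 in WT–emiRFP. The groups did not overlap (log2 2.59 ± 0.22 SE, edgeR adjusted p = 2.65e-05), and p53KO–emiRFP libraries lay at 113, 155 and 158. Its difference over the 6 times ran from log2 2.06 at 96 h to 2.99 at 72 h. At 144 h it stood at 4742, 4504 and 5763 in WT–mCherry against 880, 898 and 975 in WT–emiRFP.

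Peg3, which is known to influence growth and maternal behaviour, was 7642, 7628 and 7397 in WT–mCherry mES cells and 2242, 3333 and 3525 in WT–emiRFP. The difference was smaller than for the genes above but also without overlap (log2 1.32 ± 0.14 SE, edgeR adjusted p = 0.000165). It ran from log2 0.55 at 72 h to 1.58 at 144 h, when WT–mCherry stood at 60055, 44420 and 86424 and WT–emiRFP at 22790, 18463 and 22582. At 72 h the call was lost without the replicate 1 libraries (log2 0.51, edgeR adjusted p = 0.342) and without the replicate 2 libraries (0.55, 0.0881), and at 120 h without the replicate 1 libraries (0.81, 0.528). Both calls were also lost in a fit of only the 2 groups (edgeR adjusted p = 0.0541 and 0.0581).

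Grb10 ran the other way. It was 1768, 1650 and 1578 in WT–mCherry mES cells, 6545, 9317 and 9731 in WT–emiRFP and 8051, 9037 and 9795 in p53KO–emiRFP. All WT–mCherry libraries were lower than any emiRFP library (WT–mCherry minus WT–emiRFP log2 −2.35 ± 0.14 SE, 5.12-fold, edgeR adjusted p = 7.19e-07). The gap widened to log2 −3.79 at 96 h and −3.84 at 120 h, when the means were 1403 ± 174 and 20138 ± 4127. At 144 h the WT–mCherry libraries of WT + WT gastruloids held 1635, 1120 and 1407 and the WT–emiRFP libraries 10374, 9920 and 9877.

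Taken over all WT–mCherry libraries, beside WT or p53KO cells, and all emiRFP libraries of either genotype at the same time, H19, Mest and Plagl1 were above without overlap at 6 of 6 times and Grb10 below at 6 of 6. Peg3 and Rian were each above at 3 times and overlapped at the other 3, Mirg was above at 2 times and Meg3 at 1. Igf2 was below at 3 times and Dlk1 overlapped at all 6. The share of all genes that separate in this way was not counted, so these counts have no background. At 48 h, for example, H19 lay between 1027 and 1315 in 6 WT–mCherry libraries and between 46.3 and 245 in 6 emiRFP libraries. 

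**Figure D2:**
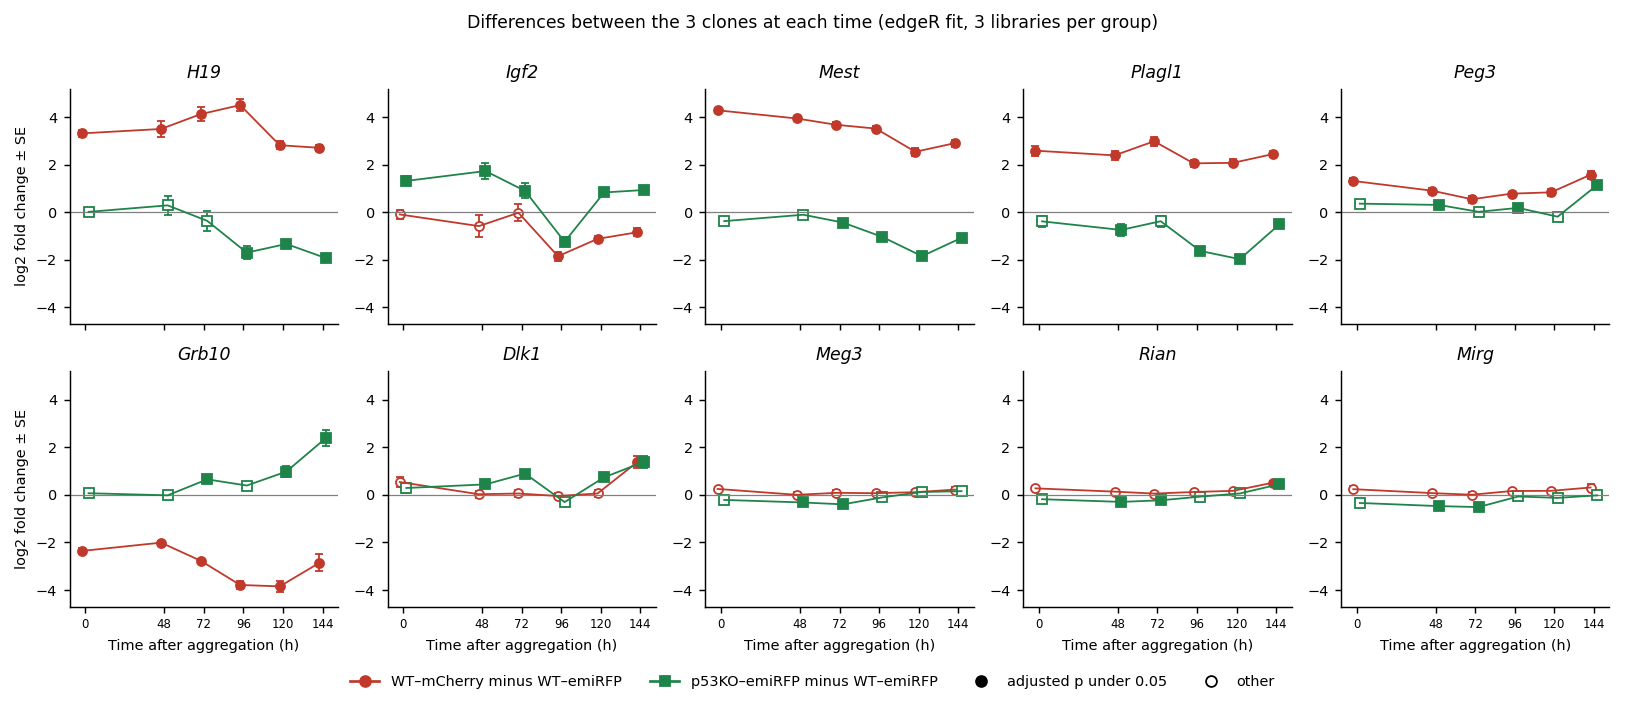
Log2 fold change ± SE of each member against time in hours, for WT–mCherry minus WT–emiRFP and for p53KO–emiRFP minus WT–emiRFP cells; filled points passed an edgeR adjusted p of 0.05. H19, Mest, Plagl1 and Peg3 lie above 0 and Grb10 below 0 at all 6 times in the comparison of the WT clones, and Grb10 of p53KO–emiRFP cells climbs to log2 2.39 at 144 h.

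Igf2 did not follow H19. In mES cells it was 133, 124 and 143 in WT–mCherry and 135, 118 and 170 in WT–emiRFP, which overlapped (log2 −0.09 ± 0.20 SE, edgeR adjusted p = 0.808). It was lower in WT–mCherry cells at 96, 120 and 144 h, by log2 −1.85 ± 0.20, −1.12 ± 0.10 and −0.84 ± 0.17, with edgeR adjusted p of 0.000157, 4.21e-05 and 0.00335. At 96 h the libraries were at 412, 387 and 499 in WT–mCherry and 1282, 1295 and 2103 in WT–emiRFP. At 48 and 72 h the libraries of WT + WT gastruloids held 4 to 23 Igf2 reads, and Igf2 was not called between the WT clones (log2 −0.58 ± 0.45 SE, edgeR adjusted p = 0.481, and −0.02 ± 0.35, 0.984).

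Reads of H19 over reads of Igf2 in the same library, a ratio that needs no size factor, separated WT–mCherry from both other clones. The ratio was 24.6 to 187 in the 33 WT–mCherry libraries (median 43.6), 0.236 to 14.5 in the 18 WT–emiRFP libraries (median 3.57) and 0.231 to 6.61 in the 18 p53KO–emiRFP libraries (median 0.707). No WT–mCherry library overlapped a library of another clone at any time, and the emiRFP clones overlapped each other. In WT–emiRFP cells the ratio was 13.7, 14.5 and 9.28 in mES cells, 0.41, 0.524 and 0.236 at 96 h and 4.27, 3.41 and 3.73 at 144 h, so that Igf2 reads exceeded H19 reads at 96 h and not before or after. In p53KO–emiRFP cells Igf2 reads exceeded H19 reads in each library at 96, 120 and 144 h. Because the Igf2 row rests on part of its exons, a ratio of 1 does not mark equal RNA.

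**Figure D3:**
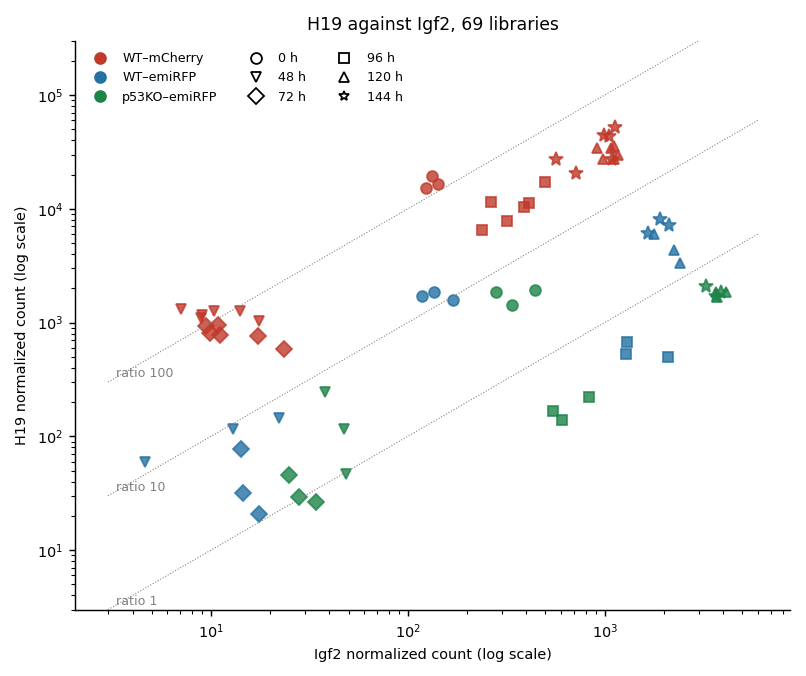
H19 against Igf2, both as normalized counts on log scales, in each of the 69 libraries, with the clone as colour, the time as symbol and dotted lines at ratios of 1, 10 and 100. All WT–mCherry libraries lie at a ratio of 24.6 or higher and all emiRFP libraries at 14.5 or lower, and both emiRFP clones lie lowest in ratio at 96 h.

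The members of the Dlk1–Dio3 cluster differed less between the WT clones than H19. Meg3, a growth-restraining non-coding RNA, was 3966, 4349 and 5292 in WT–mCherry mES cells and 3654, 3889 and 3881 in WT–emiRFP (log2 0.25 ± 0.10 SE, edgeR adjusted p = 0.133), and it was not called between the WT clones at any of the 6 times. Rian and Mirg lay within log2 0.06 to 0.51 and 0.01 to 0.31. Rian was called at 144 h only (log2 0.51 ± 0.08 SE, edgeR adjusted p = 0.000473), when it stood at 10653, 8894 and 11341 in WT–mCherry and 7114, 6930 and 7603 in WT–emiRFP cells. Dlk1 was called at 144 h as well (log2 1.37 ± 0.26 SE, edgeR adjusted p = 0.00201), with 1312, 915 and 1712 against 646, 472 and 399, and this call was lost without the replicate 3 libraries (log2 0.99, edgeR adjusted p = 0.0666). With the replicate number as a block, Rian was also called at 48 h (log2 0.14, edgeR adjusted p = 0.000727), 96 h (0.12, 0.00751) and 120 h (0.17, 0.0164), Mirg at 96 h (0.17, 0.00839) and 144 h (0.31, 0.0036) and Meg3 at 144 h (0.22, 0.0296), all as small differences.

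The proportions of the 3 non-coding RNAs of the cluster had similar medians in the 3 clones. Rian reads over Meg3 reads had a median of 1.66 in WT–mCherry, 1.59 in WT–emiRFP and 1.72 in p53KO–emiRFP libraries, and Mirg over Meg3 a median of 0.172, 0.182 and 0.168. The full range over 69 libraries was 0.92 to 2.09 for the first ratio and 0.1 to 0.269 for the second. The lowest group medians of both were those of WT–mCherry cells beside p53KO cells at 144 h, with 0.92, 0.962 and 0.997 for Rian over Meg3 and 0.117, 0.1 and 0.121 for Mirg over Meg3. The H19 to Igf2 ratio spanned 0.231 to 187.

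In all, 5 of 10 members were called between the WT clones in mES cells (4 higher in WT–mCherry, 1 lower), against 11.1% of all genes tested. In gastruloids 5 members were called at both 48 and 72 h, where 8.89% and 7.64% of all genes were called. At both 96 and 120 h 6 members were called, against 2.15% and 1.24% of all genes, and at 144 h 8, against 23.8%. The medians of the members were log2 0.41 at 0 h and 0.94 at 144 h, and those of all genes tested were 0.00 and −0.01. At 0 h, 8 members were called without the replicate 1 libraries, where Meg3, Rian and Dlk1 were added. The share of all genes called in that fit is not given here, so this count has no background. Of the naive pluripotency markers 4 of 6 were higher in WT–mCherry cells at 48 h and 3 of 6 at 72 h, and 2 of 6 were lower at 120 h. At 144 h, 5 of 6 naive pluripotency markers were lower and 3 of 4 neural and 3 of 4 fibroblast markers higher in WT–mCherry than in WT–emiRFP cells, and the part of cell type in the differences after aggregation was not tested. In mES cells the summed naive pluripotency markers were 183703 to 195024 in WT–mCherry and 182815 to 193357 in WT–emiRFP. There 1 of 6 naive, 2 of 6 haematoendothelial and 1 each of the extraembryonic endoderm, trophoblast, cardiac and fibroblast markers were higher in WT–mCherry. Of 2 neural markers tested 1 was lower (list sums 848 to 955 against 1376 to 1541), and the part of these markers in the mES differences was not tested.

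The time course was then followed in WT cells, as the equal-weight mean of both WT clones in mES cells and in WT + WT gastruloids. From 0 to 48 h all 10 members were called, 6 higher and 4 lower, where 67.8% of all genes were called. The non-coding RNAs of the Dlk1–Dio3 cluster rose (Rian log2 1.74 ± 0.05 SE, Mirg 1.84 ± 0.08, Meg3 1.38 ± 0.09), whereas H19 (log2 −3.89 ± 0.19), Igf2 (−3.64 ± 0.25) and Plagl1 (−2.59 ± 0.16) fell. In WT–emiRFP cells H19 went from 1712 ± 136 at 0 h to 107 ± 43.6 at 48 h and 43.1 ± 29.8 at 72 h, and in WT–mCherry cells from 17062 ± 2035 to 1224 ± 109 and 770 ± 177. The edgeR adjusted p of these 6 named changes lay at or under 1.99e-19. Marker lists moved over the time course as well. Mean summed naive markers went from 190385 at 0 h to 14131 at 48 h and 54832 at 144 h in WT–mCherry cells, and from 189740 to 9800 and 78168 in WT–emiRFP. Primitive streak and paraxial mesoderm markers went from 766 at 48 h to 43033 at 72 h in WT–mCherry and from 986 to 54686 in WT–emiRFP. Their part in the changes of the members was not tested.

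From 48 to 72 h, during the CHIR99021 pulse, 8 members were called (60.5% of all genes), 2 higher and 6 lower. Plagl1 (log2 2.33 ± 0.17 SE) and Peg3 (0.88 ± 0.11) rose, and Mirg (−0.71), Mest (−0.76), Rian (−0.43), Meg3 (−0.31), Grb10 (−0.38) and H19 (−0.98) fell. From 72 to 96 h 7 members were called (52.3%), all higher. Igf2 rose most, by log2 5.73 ± 0.19, from 15.2 ± 7.19 to 433 ± 58.7 in WT–mCherry and from 15.4 ± 1.77 to 1560 ± 470 in WT–emiRFP cells. H19 rose in the same interval by log2 3.87 ± 0.21 and Dlk1 by 2.02 ± 0.16. For Grb10 the WT mean joins unlike changes of the clones. Per kb it was 298 ± 37.0 at 48 h, 176 ± 4.8 at 72 h and 173 ± 40.8 at 96 h in WT–mCherry cells. In WT–emiRFP cells it was 1200 ± 108, 1198 ± 54.2 and 2378 ± 135. The small changes of Grb10 lost their calls without the replicate 1 libraries in the steps to 48 h (log2 0.52, edgeR adjusted p = 0.0537), 72 h (−0.40, 0.148) and 96 h (0.44, 0.129), and without replicate 3 in the first 2 of these (0.0581 and 0.237). With TMM scaling the step to 72 h was not called (−0.36, 0.0535), and with WT–mCherry cells beside p53KO cells added to the WT mean the step to 48 h was not (0.22, 0.191). Dlk1, lower by log2 −0.54 in the step to 48 h, lost its call without the replicate 1 libraries (−0.38, 0.0984).

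From 96 to 120 h 8 members were called (52.4%), 4 in each direction. Mest (log2 2.35 ± 0.10 SE), H19 (2.16 ± 0.16), Plagl1 (2.02 ± 0.12) and Igf2 (0.83 ± 0.12) rose, while Meg3 (−0.54), Rian (−0.55), Mirg (−0.63) and Dlk1 (−0.40) fell. The Dlk1 call was lost without the replicate 2 libraries (log2 −0.27, edgeR adjusted p = 0.163) and without the replicate 3 libraries (−0.39, 0.0593), and when WT–mCherry cells beside p53KO cells were added to the WT mean (−0.23, 0.084). From 120 to 144 h 6 members were called (43.2%), with Dlk1 (1.24 ± 0.14), H19 (0.61 ± 0.15) and Mest (0.61 ± 0.09) higher and Grb10 (−0.51), Plagl1 (−0.30) and Rian (−0.18) lower. The clones differed here. Per kb, Grb10 went from 154 ± 19.1 to 153 ± 28.4 in WT–mCherry and from 2216 ± 454 to 1106 ± 30.3 in WT–emiRFP cells. Rian went from 587 ± 20.5 to 585 ± 71.7 and from 522 ± 25.3 to 410 ± 19.7. Grb10 and Plagl1 lost their calls in this last step without the replicate 1 libraries (edgeR adjusted p = 0.0928 and 0.0929), Grb10 also without replicate 3 (0.0759) and Plagl1 without replicate 2 (0.168). With that addition Grb10 changed by log2 −0.06 (edgeR adjusted p = 0.733) in this step.

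p53KO–emiRFP cells were compared with WT–emiRFP cells to see the members where p53 is absent. In gastruloids this comparison also differs in neighbours and seeding, since p53KO cells grew beside WT–mCherry cells from 25 seeded cells. It shares its WT–emiRFP libraries with the comparison of the WT clones. In mES cells 1 of 10 members was called, against 6.13% of all genes. That member was Igf2, with 339, 280 and 440 in p53KO–emiRFP against 135, 118 and 170 in WT–emiRFP and no overlap (log2 1.32 ± 0.19 SE, 2.5-fold, edgeR adjusted p = 0.000869). H19 (log2 0.02), Grb10 (0.07) and Dlk1 (0.29) overlapped between the clones. With the replicate number as a block, 2 members were called, since Mest was also lower (log2 −0.37, edgeR adjusted p = 0.0334), and so were 1799 of all 18323 genes. Without the replicate 1 libraries 3 members were called (Igf2, Mest and Rian), and no share of all genes is set beside that count. Markers differed between these clones too. The 4 fibroblast markers were all higher in p53KO–emiRFP (sums 462 to 695 against 257 to 308), and 1 trophoblast and 1 cardiac marker were higher. Of the naive pluripotency markers 3 of 6 were lower (sums 155027 to 160624 against 182815 to 193357), as were 2 of 4 extraembryonic endoderm, 1 of 3 definitive endoderm and 1 of 2 neural markers tested. Their part in the Igf2 difference was not tested.

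After aggregation 7 members were called at both 48 and 72 h, against 22% and 29.1% of all genes. At 96 h 5 members were called (23.3% of all genes), and at 120 and 144 h 6 and 8 (51% and 65.3%), so that the late counts lay near the share of all genes. No member was called in the same direction at all 6 times, a pattern held by 15 genes higher (0.092%) and 247 genes lower (1.51%). At 48 and 72 h the differences of the members were mostly small, and the counts fell to 2 (48 h) and 4 (72 h) without the replicate 1 libraries and to 4 and 5 without the replicate 2 libraries. At 48 h Plagl1 (log2 −0.74) lost its call without any of the 3 replicate numbers (edgeR adjusted p = 0.0627 to 0.224) and in a fit of only the 2 groups (0.0899). Dlk1 (0.44) lost it without replicate 1 (0.204) or 2 (0.119) and in the fit of 2 groups (0.0521), and Meg3 (−0.32) without replicate 1 (0.139) or 3 (0.0659). At 72 h Meg3 (−0.40) lost it without replicate 1 (0.2) or 3 (0.0578) and Mest (−0.43) without replicate 2 (0.167). Grb10 and Dlk1 at 72 h were exceptions to that. Grb10 was at 16786, 16609 and 18008 in p53KO–emiRFP and 10379, 10917 and 11362 in WT–emiRFP cells (log2 0.65 ± 0.05 SE, edgeR adjusted p = 2.07e-07). Dlk1 was called higher at 72 h, at 36.3 ± 3.67 against 19.5 ± 0.66 normalized counts per kb, and kept that call without any 1 replicate number. Rian (log2 −0.29 ± 0.04 at 48 h) and Mirg (−0.47 ± 0.09 at 48 h, −0.51 ± 0.10 at 72 h) were lower in p53KO–emiRFP cells and kept their calls without any 1 replicate number, except Rian at 72 h without the replicate 1 libraries (log2 −0.22, edgeR adjusted p = 0.0712). At 144 h Rian was higher instead, at 10423, 9399 and 9710 against 7114, 6930 and 7603 (log2 0.45 ± 0.08 SE, edgeR adjusted p = 0.000156). Of the naive pluripotency markers 1 of 6 was higher and 1 lower at 48 h, and 4 of 6 were lower at 72 h (sums 19631 to 20265 against 23347 to 25711). Fibroblast markers were higher in 2 of 4 cases at 48 h and 1 of 4 at 72 h, 2 of 6 haematoendothelial markers were higher at 48 h, and 2 of 3 trophoblast markers tested were lower at 72 h. Their part in the early differences was not tested.

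Grb10 showed the largest difference of the members at 144 h. At 144 h it reached 55496, 51813 and 50756 in p53KO–emiRFP cells and 10374, 9920 and 9877 in WT–emiRFP cells. The groups were far apart (log2 2.39 ± 0.34 SE, 5.24-fold, edgeR adjusted p = 3.04e-05). In p53KO–emiRFP cells Grb10 was higher at each later time, from 10777 ± 171 at 48 h to 52688 ± 2488 at 144 h, whereas in WT–emiRFP cells it was 21615 ± 1226 at 96 h and 20138 ± 4127 at 120 h, which overlapped, and 10057 ± 275 at 144 h. The difference was log2 0.98 ± 0.22 at 120 h (edgeR adjusted p = 0.00182). At 96 h it was log2 0.39 with an edgeR adjusted p of 0.0829, or 0.00184 with the replicate number as a block.

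Igf2, the growth factor, was 3914, 3288 and 3660 in p53KO–emiRFP and 1899, 2127 and 1655 in WT–emiRFP cells at 144 h, without overlap (log2 0.94 ± 0.17 SE, edgeR adjusted p = 0.000227). It was higher at 5 of 6 times and lower at 96 h, where p53KO–emiRFP libraries held 606, 544 and 830 and WT–emiRFP libraries 1282, 1295 and 2103 (log2 −1.24 ± 0.19 SE, edgeR adjusted p = 0.000284). The 72 h call was lost without any of the 3 replicate numbers (edgeR adjusted p = 0.0595 to 0.234) and with DESeq2 (DESeq2 adjusted p = 0.0904), and the 48 h call without the replicate 1 libraries (log2 1.68, edgeR adjusted p = 0.0646). H19 went the other way. At 144 h H19 was 1875, 2101 and 1697 in p53KO–emiRFP cells against 8118, 7243 and 6181 in WT–emiRFP (log2 −1.92 ± 0.13 SE, edgeR adjusted p = 1.65e-08), and it was also lower at 96 h (−1.70 ± 0.28) and 120 h (−1.33 ± 0.17).

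Mest and Plagl1 were lower in p53KO–emiRFP cells late in the time course. Mest was 1628, 1895 and 2045 in p53KO–emiRFP and 6078, 8760 and 5145 in WT–emiRFP cells at 120 h, the time of its largest difference (log2 −1.84 ± 0.17 SE, edgeR adjusted p = 6.72e-07), and at 144 h the difference was −1.07 ± 0.14. Plagl1 was 396, 254 and 336 against 1198, 1431 and 1222 at 120 h (log2 −1.97 ± 0.16 SE, edgeR adjusted p = 1.99e-07). For both genes the p53KO–emiRFP libraries were below all WT–emiRFP libraries at 96, 120 and 144 h. Markers differed at these times as well, with 6 of 6 naive pluripotency markers lower at both 96 and 120 h (sums 10008 to 11070 against 25004 to 27698, and 9823 to 10560 against 55910 to 64583). At 120 h 5 of 6 haematoendothelial and 4 of 4 trophoblast markers were lower and 4 of 6 primitive streak and paraxial mesoderm markers higher. Their part in the differences of the members was not tested.

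Peg3 and Dlk1 were higher at the end. Peg3 stood at 45012, 44776 and 51446 in p53KO–emiRFP and 22790, 18463 and 22582 in WT–emiRFP cells at 144 h (log2 1.15 ± 0.17 SE, edgeR adjusted p = 4.78e-05), but at 120 h the libraries overlapped (log2 −0.18, edgeR adjusted p = 0.354; with the replicate number as a block −0.19 and 0.00538). Its calls at 48 and 96 h were small (log2 0.31 and 0.19). The first was lost without replicate 1 (edgeR adjusted p = 0.23) or 2 (0.131) and with TMM scaling (0.065), and the second without any of the 3 replicate numbers (0.081 to 0.188) and in a fit of only the 2 groups (0.07). Dlk1 was 1456, 1117 and 1384 against 646, 472 and 399 at 144 h (log2 1.38 ± 0.26 SE, edgeR adjusted p = 0.000323). It was called higher at 4 of 6 times, also at 120 h, where it was 99.8 ± 15.9 against 59.8 ± 11.5 normalized counts per kb. Dlk1 at 96 h was called lower with the replicate number as a block (log2 −0.29, edgeR adjusted p = 0.0136) and with no low-count filter (−0.30, 0.0429).

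From 0 to 144 h, 9 of 10 members rose in p53KO–emiRFP cells and none fell (73.8% of all genes were called). Mest (log2 3.86 ± 0.16 SE), Peg3 (3.59 ± 0.18), Igf2 (3.36 ± 0.18) and Dlk1 (2.91 ± 0.21) changed most. H19, at 1421, 1854 and 1928 in mES cells and 1875, 2101 and 1697 at 144 h, overlapped (log2 0.13 ± 0.22, edgeR adjusted p = 0.621). The p53KO–emiRFP difference changed between 0 and 144 h for 6 members, 4 upwards and 2 downwards, where 50.1% of all genes changed, and the difference between the WT clones changed for 2 members, where 16.4% changed. At 144 h the marker lists also differed between p53KO–emiRFP and WT–emiRFP cells, with 6 of 6 naive pluripotency and 4 of 4 trophoblast markers lower and 6 of 6 primitive streak and paraxial mesoderm markers higher in p53KO–emiRFP. Summed naive markers were 11982 to 18140 in p53KO–emiRFP and 72442 to 85515 in WT–emiRFP libraries, and their part in the late differences of the members was not tested.

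Per kilobase at 144 h, Grb10 (5797 ± 274), Peg3 (3533 ± 284) and Igf2 (1702 ± 148) led in p53KO–emiRFP cells, followed by Mest (1076 ± 28.7) and H19 (796 ± 85.2). In WT–mCherry cells of WT + WT gastruloids H19 (19781 ± 2057) and Mest (17003 ± 2794) led, without a difference beyond their spread, and Grb10 (153 ± 28.4) and Mirg (164 ± 30.9) were lowest and overlapped. WT–emiRFP cells stood between these orders, with H19 (3022 ± 408), Mest (2265 ± 519), Peg3 (1597 ± 183) and Grb10 (1106 ± 30.3) in the first 4 places.

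The effect of the neighbours was examined in WT–mCherry cells, where the same clone was sorted from WT + p53KO and from WT + WT gastruloids. No member was called by edgeR at 48 h (0.0735% of all genes) or at 72 h (0.559%). At an unadjusted edgeR p under 0.05 there were 0 members at 48 h and 1 at 72 h, Grb10, and DESeq2 called 0 and 1, again Grb10 (log2 0.25, DESeq2 adjusted p = 0.00542). With the replicate number as a block, 2 were called at 48 h, Meg3 (log2 0.16, edgeR adjusted p = 0.024) and Peg3 (0.11, 0.038), and 1 at 72 h, Grb10 (0.25, 0.0116). The block called 869 of all 17686 genes at 48 h and 402 of 17714 at 72 h. At 96 h 4 members were called (3.93%), namely Peg3 (log2 0.29 ± 0.06 SE), Rian (0.18 ± 0.05), Grb10 (0.65 ± 0.17) and Plagl1 (−0.74 ± 0.14), and at 120 h 3 (5.95%), namely Grb10, Mest and Plagl1. Without the replicate 1 libraries 0 were called at either time. At 96 h Peg3 and Rian lost their calls without any of the 3 replicate numbers (edgeR adjusted p = 0.0588 to 0.36 and 0.0928 to 0.451), and Rian also with TMM scaling (0.0521) and in a fit of only the 2 groups (0.0883). Grb10 lost its 96 h call without replicate 1 (0.416) or 2 (0.21) and in the fit of 2 groups (0.115), and Plagl1 without replicate 1 (0.362), while at 120 h, without the replicate 3 libraries, Peg3 alone was called (log2 −0.48, edgeR adjusted p = 0.0322). With the block 9 members were called at 96 h, where Mirg was the exception, and so were 3830 of all 18343 genes tested. Of the naive pluripotency markers 3 of 6 were lower beside p53KO cells at 96 h and 2 of 6 at 120 h (sums 21859 to 24127 against 26155 to 31746, and 36291 to 39947 against 43443 to 53548). At 120 h 4 of 6 primitive streak and paraxial mesoderm markers were higher and 3 of 6 haematoendothelial, 2 of 4 fibroblast and 2 of 4 trophoblast markers lower. Their part in the calls at 96 and 120 h was not tested.

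At 144 h 8 of 10 members were called (25.5% of all genes), 6 lower and 2 higher beside p53KO cells. Mest had the largest decrease. It was 21823, 20251 and 19713 beside p53KO cells and 65888, 56699 and 78645 beside WT cells, which did not overlap (log2 −1.70 ± 0.14 SE, edgeR adjusted p = 9.66e-06). Mest was already lower at 120 h, at 25054, 22844 and 27178 against 39173, 32785 and 44502 (log2 −0.63 ± 0.16 SE, edgeR adjusted p = 0.0334), a call that was lost without the replicate 1 libraries (edgeR adjusted p = 0.323) and without the replicate 3 libraries (0.0944).

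Peg3 was 28083, 27270 and 30504 beside p53KO cells and 60055, 44420 and 86424 beside WT cells at 144 h (log2 −1.15 ± 0.17 SE, edgeR adjusted p = 0.000553). H19 was 27562, 27271 and 20738 against 44706, 43683 and 52612 (log2 −0.90 ± 0.12 SE, edgeR adjusted p = 0.000289), and Plagl1 2183, 2742 and 2900 against 4742, 4504 and 5763 (log2 −0.94 ± 0.11 SE, edgeR adjusted p = 0.000103). For these 3 genes each library beside p53KO cells was lower than each library beside WT cells. Plagl1 was also lower at 96 h and at 120 h (log2 −0.70 ± 0.14). Both of these calls were lost without the replicate 1 libraries (edgeR adjusted p = 0.362 and 0.102), the second also without replicate 3 (0.11).

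Dlk1 (log2 −1.03 ± 0.26 SE, edgeR adjusted p = 0.0104) and Rian (−0.46 ± 0.08, 0.00107) were lower at 144 h as well, and Meg3 was higher (0.31 ± 0.11, 0.0484). The Dlk1 call was lost without the replicate 3 libraries (log2 −0.86, edgeR adjusted p = 0.0831), and the Meg3 call without replicate 2 (0.22, 0.227), without replicate 3 (0.29, 0.216), with TMM scaling (0.31, 0.0544) and in a fit of only the 2 groups (0.31, 0.0615). Igf2 was 1092, 567 and 719 beside p53KO cells and 988, 1054 and 1132 beside WT cells, with overlap (log2 −0.42 ± 0.18 SE, edgeR adjusted p = 0.0987). Without the replicate 1 libraries the difference was log2 −0.76 and was called (edgeR adjusted p = 0.0149). With the replicate number as a block Igf2 (log2 −0.44, edgeR adjusted p = 0.0363) and Mirg (−0.37, 0.000974) were called too.

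Grb10 was higher beside p53KO cells at 144 h, at 7327, 1799 and 6469 against 1635, 1120 and 1407 (log2 1.91 ± 0.35 SE, edgeR adjusted p = 0.00179). The same libraries held 926, 130 and 456 normalized counts of H2bc14, in the same order. From H2bc14 the share of emiRFP RNA in them was estimated as 16.7, 2.26 and 9.09%, compared with 2, 0.0918 and 1.58% beside WT cells, and Grb10 of p53KO–emiRFP cells averaged 52688 at that time. After the estimated p53KO–emiRFP or WT–emiRFP reads had been subtracted, the difference turned to log2 −0.50 ± 0.73 SE (edgeR adjusted p = 0.647). In the library with a share of 16.7%, that share of the 55496 Grb10 counts of p53KO–emiRFP cells exceeded the 7327 counted. The estimate took away more Grb10 than this library held, and its value was cut at 0. The turned sign is therefore not read as a difference of WT–mCherry cells. At 120 h, with estimated shares of 7.34, 2.91 and 6.54%, it turned from log2 1.05 ± 0.23 (edgeR adjusted p = 0.0155) to −0.72 (0.0231), and at 96 h it went from 0.65 (0.0452) to 0.39 (0.132). These values rest on the same kind of estimate, whose accuracy was not tested.

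Under the same subtraction the 144 h differences of Mest (log2 −1.60), Peg3 (−1.27), Dlk1 (−1.21), Plagl1 (−0.85), H19 (−0.78), Rian (−0.53) and Meg3 (0.34) kept their direction and their calls. Igf2 (log2 −1.12, edgeR adjusted p = 1.39e-05) and Mirg (−0.38, 0.0391) were then called lower. All these values use the share of 16.7% for the replicate 1 library beside p53KO cells, which took away more Grb10 than that library held. Whether too much was also subtracted for the other members was not tested, and Igf2 was higher in p53KO–emiRFP cells. The 120 h difference of Mest became −0.57 with an edgeR adjusted p of 0.0569. At 144 h the WT–mCherry cells beside p53KO cells were lower in 4 of 4 neural, 3 of 4 fibroblast and 3 of 6 haematoendothelial markers and higher in 3 of 4 definitive endoderm and 3 of 6 primitive streak and paraxial mesoderm markers. The summed neural markers were 1532 to 2148 beside p53KO and 2667 to 3123 beside WT cells, the fibroblast markers 1060 to 1345 and 3191 to 5123. Their part in the 144 h differences was not tested.

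**Figure D4:**
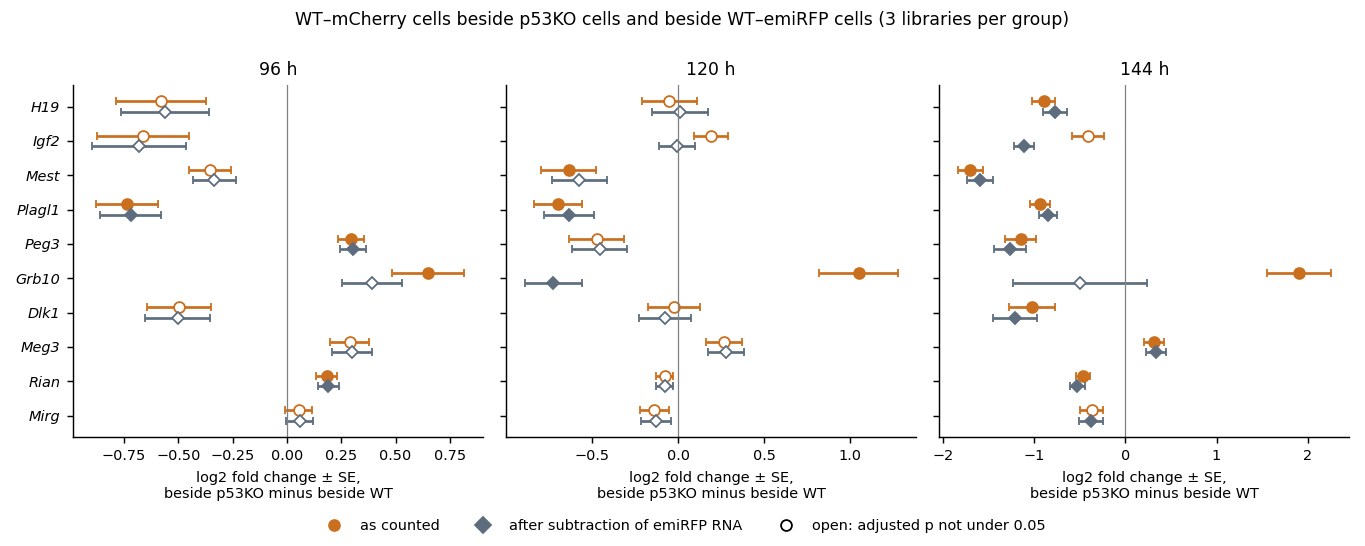
Log2 fold change ± SE of each member in WT–mCherry cells beside p53KO cells minus beside WT cells at 96, 120 and 144 h, as counted (circles) and after subtraction of the estimated emiRFP RNA (diamonds); filled symbols passed an edgeR adjusted p of 0.05. At 144 h Mest lies at −1.70 before and −1.60 after the subtraction, whereas Grb10 moves from 1.91 to −0.50. For Grb10 at 144 h the estimated part exceeded the count of the replicate 1 library beside p53KO cells, which was cut at 0.

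Genes that share an imprinted locus with a member were listed to see whether neighbours on the chromosome moved with it. Of 24 such genes 20 were tested in mES cells. In WT–mCherry minus WT–emiRFP, 4 were higher and 1 lower, where 11.1% of all genes were called (median log2 0.26, all genes 0.00). Usp29, the divergently transcribed partner of Peg3, was higher (144 ± 42.0 against 74.7 ± 12.7, log2 0.95 ± 0.24 SE, edgeR adjusted p = 0.0217), and so were Zfp264 of the Peg3 region (log2 0.73), Ascl2, a transcription factor of trophoblast, of the Kcnq1ot1 region (0.80) and Cobl, an actin nucleator beside Grb10 (0.50). The organic cation transporter gene Slc22a18 was lower (log2 −0.61). Usp29 was the 1 gene of this list called higher at all 6 times, with log2 0.85 to 1.65.

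Between p53KO–emiRFP and WT–emiRFP mES cells 1 of the 20 was higher and 3 lower, where 6.13% of all genes were called (median log2 0.02). Igf2os, the antisense RNA at Igf2, rose with Igf2 (70.1 ± 6.57 against 32.9 ± 4.35, log2 1.08 ± 0.21 SE, edgeR adjusted p = 0.00731). The tetraspanin gene Cd81 (log2 −1.16), Zfp264 (−0.74) and Ddc, which encodes aromatic amino acid decarboxylase (−0.54), were lower. At 144 h 10 of 23 were higher and 8 lower, near the 65.3% called among all genes. The cell cycle inhibitor gene Cdkn1c (4161 ± 202 against 1314 ± 57.5, log2 1.66 ± 0.15 SE), Igf2os (1.65 ± 0.14), Zim1 (1.11 ± 0.21) and Usp29 (0.94 ± 0.19) were among the higher genes. Ddc (−1.77 ± 0.12) and Cobl (−2.49 ± 0.16), which flank Grb10, were lower where Grb10 was higher. Zfp264 was lower at all 6 times, by log2 −3.97 to −0.74.

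Other imprinted genes, from 33 symbols of which 25 were tested in mES cells, were listed in the same way. In WT–mCherry minus WT–emiRFP mES cells 10 were higher and 2 lower, against 11.1% called among all genes, with a median of log2 0.54 against 0.00. Zdbf2, a paternally expressed gene of growth control, was 7267 ± 861 against 1377 ± 697 (log2 2.40 ± 0.30 SE, edgeR adjusted p = 0.000553). Nnat, a paternally expressed proteolipid gene, was 262 ± 42.6 against 51.3 ± 3.81 (2.36 ± 0.18, 1.46e-05), and Nap1l5, a paternally expressed nucleosome assembly gene, 41.9 ± 8.51 against 10.1 ± 3.34 (2.03 ± 0.32, 0.00242).

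Of the paternally expressed genes of this list, 7, 9, 8, 7, 6 and 11 were higher in WT–mCherry cells at 0, 48, 72, 96, 120 and 144 h, out of 17 to 19 tested, and 1 was lower, at 144 h. Of the maternally expressed genes, 8 or 9 tested, 0 to 3 were higher and 1 or 2 lower at each time. The shares of all genes called in either direction at these times were 11.1, 8.89, 7.64, 2.15, 1.24 and 23.8%, and the paternally and maternally expressed genes were not tested against each other. Among the genes called at all 6 times, 5 of the 22 higher genes were on this list, namely Nap1l5, Nnat, Zdbf2, Mcts2 (log2 0.43 to 0.88) and Zrsr1 (0.46 to 0.96), and 1 of the 18 lower genes, H13 (−0.82 to −0.35). Impact, an imprinted gene that the list did not hold, was among the 22 as well (log2 0.69 to 0.96). Mcts2, Zrsr1, H13 and Impact were named after their values had been seen.

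**Figure D5:**
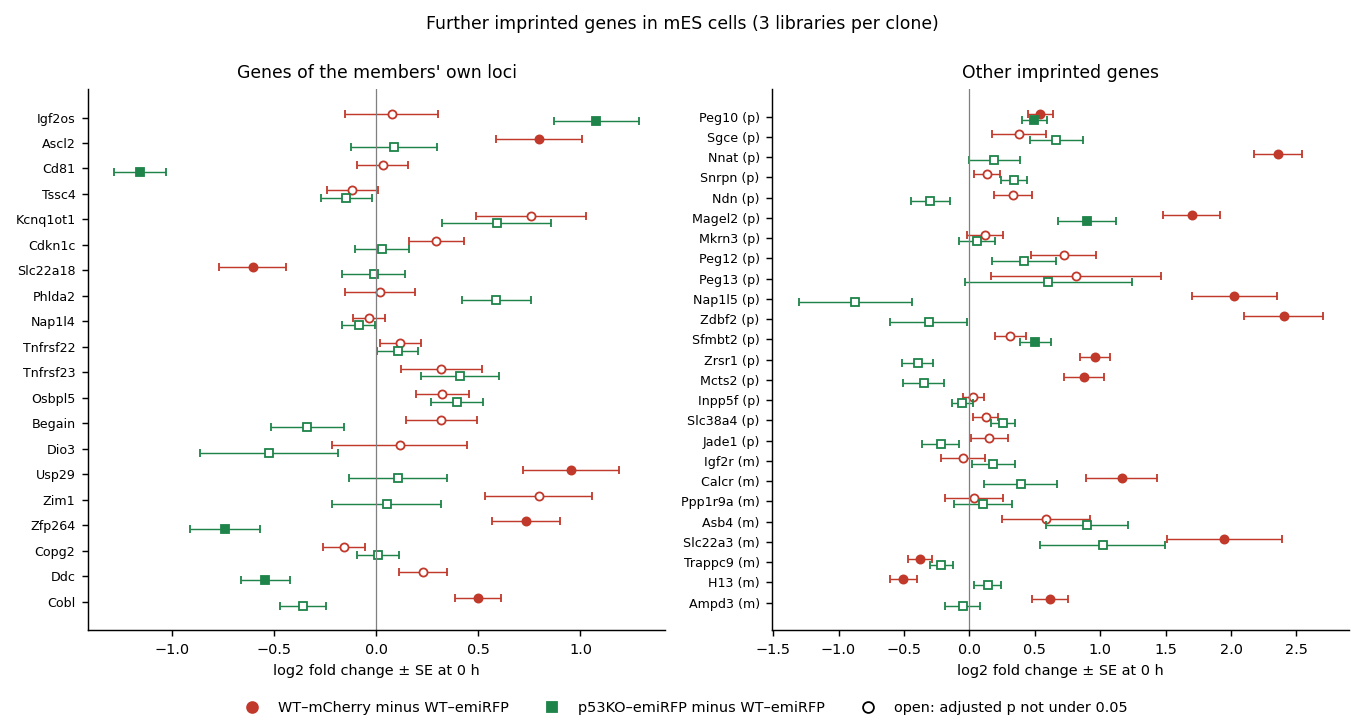
Log2 fold change ± SE of the listed imprinted genes tested in mES cells, for WT–mCherry minus WT–emiRFP and p53KO–emiRFP minus WT–emiRFP, with paternally (p) and maternally (m) expressed genes tagged and filled points for an edgeR adjusted p under 0.05. In the first comparison Zdbf2, Nnat and Nap1l5 lie above log2 2, and in the second the largest filled value is that of Cd81, at log2 −1.16.

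Between p53KO–emiRFP and WT–emiRFP mES cells 3 of the 25 were higher and none lower, where 6.13% of all genes were called (median log2 0.18). They were the paternally expressed genes Magel2 (log2 0.90), Sfmbt2 (0.50) and Peg10 (0.49). At 144 h 12 of 28 were higher and 9 lower (median log2 0.03), where 65.3% of all genes were called. Airn, the antisense RNA at Igf2r, was higher (log2 2.07 ± 0.20 SE), as was Peg12 (1.87 ± 0.16), and the amino acid transporter gene Slc38a4 was lower (−1.51 ± 0.10). In WT–mCherry cells beside p53KO cells at 144 h 2 of 28 were higher and 10 lower, where 25.5% of all genes were called, with a median of log2 −0.22 against −0.03 for all genes.

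Of the receptors, substrates and binding proteins of the insulin-like growth factor axis, 15 were tested in mES cells. Between the WT clones none was higher and 1, the RNA-binding protein gene Igf2bp2, was lower (log2 −0.58 ± 0.11 SE, edgeR adjusted p = 0.00737), where 11.1% of all genes were called. At 144 h 11 of 17 were higher and 1 lower in WT–mCherry cells (23.8% of all genes were called). In p53KO–emiRFP minus WT–emiRFP mES cells 2 were higher, the binding protein genes Igfbp6 (log2 1.39) and Igfbp4 (0.83), where 6.13% of all genes were called. At 144 h 10 of 17 were higher and 3 lower in p53KO–emiRFP cells (median log2 0.77), where 65.3% of all genes were called. Pappa, a protease that frees insulin-like growth factors from their binding proteins, was 346 ± 44.2 against 34.0 ± 11.2 (log2 3.36 ± 0.21 SE). Igfbp2 was 6881 ± 719 against 24874 ± 2560 (−1.85 ± 0.14) and Igf1 47.8 ± 7.45 against 179 ± 11.5 (−1.91 ± 0.17). In WT–mCherry cells beside p53KO cells at 144 h 2 were higher and 9 lower, against 25.5% called among all genes.

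Genes of imprint protection and DNA methylation numbered 18, and all were tested. Between the WT mES clones, where 11.1% of all genes were called, none was higher and 1 was lower, Dppa3, a maternal-effect gene that shields methylation in the zygote (870 ± 132 against 1351 ± 379, log2 −0.64 ± 0.17 SE, edgeR adjusted p = 0.0317). Between p53KO–emiRFP and WT–emiRFP mES cells, where 6.13% of all genes were called, Dppa3 (log2 0.91 ± 0.17 SE), the de novo methyltransferase gene Dnmt3a (0.45 ± 0.07) and Dnmt3b (0.42, named after its value had been seen) were higher, and Zfp57, which encodes the protein that binds methylated imprints, was lower (17411 ± 585 against 25338 ± 1521, −0.54 ± 0.08, edgeR adjusted p = 0.00115). At 144 h 4 were higher and 8 lower in p53KO–emiRFP cells, near the 65.3% called among all genes, with Dnmt3l (log2 −2.05 ± 0.11) and Zfp57 (−1.44 ± 0.12) lower and the methylcytosine dioxygenase gene Tet3 (1.57 ± 0.11) higher. In WT–mCherry cells beside p53KO cells at 144 h 2 were higher and 5 lower (25.5% of all genes were called).

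Likeness of pattern was described by Pearson's r over the 23 group means of log2(normalized count + 1), among 14078 genes, with no test, since groups of 1 clone share its history. Meg3 was most like Rian (r = 0.940) and Mirg (0.927), and Rian was also like Btbd6 (0.962). Peg3 was most like Usp29 (0.971), with which it shares a promoter region, and then Efna5 (0.952) and Fzd1 (0.937). Mest was most like Nnat (0.954), and its next genes, Dnajb3 (0.870) and Ct55 (0.862), were farther off. Igf2 followed Kctd15 (0.972), Klhdc8a (0.966) and Cdc42ep1 (0.964), and Dlk1 followed Mylk (0.955), Rhpn1 (0.954) and Robo2 (0.945).

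The members that separated the clones had other leading partners. H19 was most like 4933402E13Rik (r = 0.872), Zfp773 (0.869) and Plagl1 (0.862), and Plagl1 most like C330018D20Rik (0.912), Ct55 (0.897) and Irf2bp2 (0.878). Grb10 was most like Zmym4 (0.930) and the histone genes H2bc3 (0.894) and H2bc7 (0.891), 2 genes that, like H2bc14, were lower in WT–mCherry than in WT–emiRFP cells at all 6 times. Both emiRFP clones carry an H2B transgene, and whether its reads fall on these rows was not tested. Among the members themselves, beside the 3 RNAs of the Dlk1–Dio3 cluster, the pairs Igf2 and Dlk1 (0.875), H19 and Mest (0.848), Mest and Plagl1 (0.850) and H19 and Plagl1 (0.862) ran together, whereas Grb10 ran against Mest (−0.628). H19 and Igf2 had r = 0.563.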

How the data were processed

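The deposited table held raw read counts per gene symbol for 69 libraries, which the authors made from stranded poly(A) libraries; the submitters' processing notes name Trim Galore 0.6.7, STAR 2.7.11b and the mouse build GRCm38.p6. Which strand column of the counts was kept is not given in the sources used here. The symbols of the table were matched to Gencode vM21 gene models of the same build, a release other than the one the study names, for coordinates and exon lengths. Counts were divided by median-of-ratios size factors (17794 genes) for display, and library totals ran from 26722541 to 72981570.

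Each comparison was fitted across all genes that passed filterByExpr with edgeR 4.0.16 (quasi-likelihood test, the same size factors) in R 4.3.3, and p-values were adjusted by Benjamini-Hochberg over all genes tested, with a call at 0.05. The 3 clones at 0 h, and the groups of each gastruloid time, shared a fit, and the time steps and the changes of a difference from 0 to 144 h came from a fit of all groups. Alternatives were DESeq2 1.42.0, TMM scaling, omitting the low-count filter, a replicate block, a fit of just the 2 groups compared, all 3 WT populations for the time steps, subtraction of emiRFP RNA estimated from H2bc14, and leaving out each replicate number in turn from all groups of a fit. The scripts were tested on simulated counts with known changes. Summaries used limma 3.58.1, Python 3.11.15, pandas 2.3.3, numpy 2.4.6 and matplotlib 3.10.9.

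Replicate numbers come from the labels, and the sources used here do not say whether a number marks 1 experiment. They were taken to pair libraries where the deviations of all 3 same-numbered pairs correlated above 0.1, which held in 14 of 18 comparisons assessed, with the lowest correlation between 0.118 and 0.492 in those. It did not hold between the WT clones at 0 h (0.0865) and 72 h (0.0377), beside p53KO or WT cells at 120 h (0.0717), or from 0 to 144 h in p53KO–emiRFP cells (−0.0483).

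The genes and lists were chosen with earlier results of these data known. Named were the 10 members, the 3 genes most like each (Pearson's r over 23 group means of log2(normalized count + 1), among genes with a mean of at least 50, of which 1 is not reported here), called genes of the members' own loci, and up to 3 further genes per list with the largest change in mES cells or, for p53KO–emiRFP, also at 144 h. Promoter and miRNA sequences are those of RefSeq on GRCm38.p6.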

Additional observations from a re-analysis of the deposited data

Results flagged for a closer look

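The difference between p53KO–emiRFP and WT–emiRFP cells changed from mES cells to 144 h for 6 of the 10 members, by edgeR's test of the change itself. The change was log2 −1.94 ± 0.31 SE for H19 (edgeR adjusted p = 6.28e-07), from 0.02 at 0 h to −1.92 at 144 h. Grb10 changed by 2.32 ± 0.32 (1.47e-08), from 0.07 to 2.39. Mest changed by −0.71 ± 0.21 (0.00382), and its value without the replicate 1 libraries was −0.48 (0.175). Dlk1 changed by 1.1 ± 0.29 (0.00135), Peg3 by 0.78 ± 0.23 (0.00333) and Rian by 0.63 ± 0.09 (3.33e-08). Since 50.1% of all genes changed in this test, a count of 6 lies near the background.

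The difference between WT–mCherry and WT–emiRFP cells changed from mES cells to 144 h for 2 members, against 16.4% of all genes. Mest changed by log2 −1.38 ± 0.19 SE (edgeR adjusted p = 5.67e-07), from 4.29 at 0 h to 2.91 at 144 h, so that the clones stood closer at the end. Dlk1 changed by 0.85 ± 0.29 (0.038), and the call was lost without the replicate 1 libraries (0.69, 0.278) and without replicate 3 (0.76, 0.186). Both comparisons share the WT–emiRFP libraries.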

How the results depend on the processing

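Every difference of a member that was called, before or after an alternative, kept its direction, except Grb10 in WT–mCherry cells beside p53KO cells, which turned to log2 −0.72 at 120 h and −0.50 at 144 h when emiRFP RNA was subtracted. At 144 h the estimated part exceeded the Grb10 counted in the replicate 1 library. Of 250 tests, 238 kept their side of the threshold with DESeq2, 244 with TMM scaling, 227 with no low-count filter and 224 with the replicate block. Of the 26 that changed under the replicate block, all became calls, and the report gives those of the paired comparisons of clones and neighbours. Without replicate 1, 2 or 3, 26, 13 and 18 calls were lost. A fit of only the 2 groups lost 8 of 169, TMM scaling 4, and all 3 WT populations 3 of 50. In p53KO–emiRFP minus WT–emiRFP mES cells 2 members were called with no low-count filter, with DESeq2 and with the replicate block, against 1. For the neighbours of WT–mCherry cells, the replicate block gave 2 calls at 48 h against 0, and at 72 h the block, DESeq2 and no filter each gave 1 against 0. At 96 h the block and no filter gave 9 and DESeq2 7, against 4. At 120 h the block and no filter gave 5 against 3. The pairing was not accepted there, since 1 of 3 pairs correlated at 0.0717, although the others reached 0.626 and 0.577. For the change of the WT clone difference from 0 to 144 h, no filter gave 5 and the block and DESeq2 4, against 2. Leaving out 1 replicate number gave 5 to 8 calls between the WT mES clones and 1 to 3 for p53KO–emiRFP mES cells. It gave 2 to 5 at 48 h and 4 to 5 at 72 h in p53KO–emiRFP cells, 0 to 3 at both 96 and 120 h beside p53KO cells, and 1 to 3 for the change of the WT clone difference. Except where given below, these counts of members have no share of all genes beside them. Counts over all genes moved more. Between the WT clones the block gave 5102 against 1573 genes at 48 h, 2865 against 1354 at 72 h, 2929 against 395 at 96 h, 2040 against 233 at 120 h and 3176 against 2028 in mES cells. For the neighbours it gave 869 against 13 at 48 h, 402 against 99 at 72 h, 3830 against 720 at 96 h and 3826 against 1123 at 120 h, and without replicate 1 these 4 counts were 0, 0, 0 and 140. For p53KO–emiRFP cells it gave 1799 against 1123 in mES cells, 7262 against 3899 at 48 h and 7078 against 4267 at 96 h. The cause of these shifts was not tested. Igf2 at 48 and 72 h rests on 4 to 48 reads a library.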

Other observations

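Igf2os, the antisense RNA of Igf2, kept a narrower ratio to Igf2 across clones than H19 did. Igf2os reads over Igf2 reads had a median of 0.5 in WT–mCherry, 0.378 in WT–emiRFP and 0.371 in p53KO–emiRFP libraries, while H19 over Igf2 had medians of 43.6, 3.57 and 0.707. Magel2, a paternally expressed gene of the Snrpn region, was higher than in WT–emiRFP mES cells (57.4 ± 9.02 normalized counts) in both other clones, at 186 ± 53.1 in WT–mCherry (log2 1.70 ± 0.22 SE, edgeR adjusted p = 0.000583) and 108 ± 8.87 in p53KO–emiRFP (0.90 ± 0.22, 0.0283). These comparisons share the WT–emiRFP libraries.

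Zfp264, a zinc-finger gene of the Peg3 region, moved apart from Peg3 in p53KO–emiRFP cells. At 144 h it was 47.4 ± 11.7 in p53KO–emiRFP and 491 ± 62.6 in WT–emiRFP cells (log2 −3.38 ± 0.17 SE, edgeR adjusted p = 1.36e-09), where Peg3 was higher by log2 1.15.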
